A study of Drosophila melanogaster with 36 samples.

Results

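The 10 genes described here, Dll, dac, al, C15, Lim1, Sp1, btd, disco, disco-r and bab2, are transcription factor genes known for patterning the fly leg from body wall to claw. They were taken from a list of names and matched by symbol to FlyBase IDs, and all 10 were found among the 17807 gene IDs of the count files. RNA was measured in GFP-positive cells sorted from wing and haltere imaginal discs, the larval sacs that form the wing and the balancing organ behind it, of wandering last-instar larvae of Drosophila melanogaster raised at 25 °C. A pair of Gal4 drivers defined the cells, each switching on a GFP of the nuclear envelope (uas-kash.GFP) in a yw background. The nub.gal4 line marks distal appendage cells and the tsh.gal4 line marks proximal cells of the body wall and hinge. Each disc gave a tsh and a nub group of 2 libraries, 4 groups in all, and no group carried any manipulation beyond driver and GFP. Because each domain was sorted from its own driver line, line and domain cannot be told apart. Nothing in the labels says that replicates came from separate larvae, and the p-values therefore rest on a spread between libraries that may be technical.

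The leg grows out from a ventral primordium in which the zinc finger genes btd and Sp1 act upstream of the homeobox gene Dll. Along the axis Dll then marks distal cells, dac, a nuclear factor gene, intermediate cells, and tsh and hth the proximal ones. The homeobox genes al, C15 and Lim1 act together at the claw-bearing tip, bab2 and its neighbour bab1 pattern the tarsus, and the paired zinc finger genes disco and disco-r act in ventral appendages. Wing and haltere are dorsal appendages, and Dll is known there from the cells along the future margin.

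The library totals were 15110163 to 17705451 counts in 6 libraries and 96525031 and 92342738 in the haltere nub libraries. Comparisons with haltere nub cells are thus also comparisons of depth, and the effects of depth and tissue cannot be told apart. Levels are CPM, that is, counts divided by library size, after TMM scaling, and since exon lengths were not used, a level is compared between groups and never between genes. Ubx, the Hox gene of the haltere, stood at 769 and 818 CPM in tsh cells and 2738 and 2753 in nub cells of the haltere, against 37.0 and 37.1 and 2.05 and 6.94 in those of the wing. The driver genes nub and tsh each fell to between 1.00% and 3.05% of their own level in the other domain of the same disc. Wing tsh replicate 1 stood apart. Of 6423 genes detected at under 1 CPM in the other 7 libraries, 45.7% were over 1 CPM in that library, with a median of 0.921 CPM, against medians of 0 to 0.112 elsewhere. In bulk RNA of sorted cells, fewer cells of a type and less RNA per cell cannot be told apart.

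Of the 10 members, 8 passed the filter on low counts and were tested with edgeR among 11198 genes. Lim1 and btd did not pass. C15 and Sp1 passed through the tsh groups alone, so their higher level in tsh cells was favoured by the filter. No other gene overlapped any member in the RefSeq gene table of the Release 6 assembly, so reads shared with an overlapping gene do not bear on these counts as far as that table goes.

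**Figure D1:**
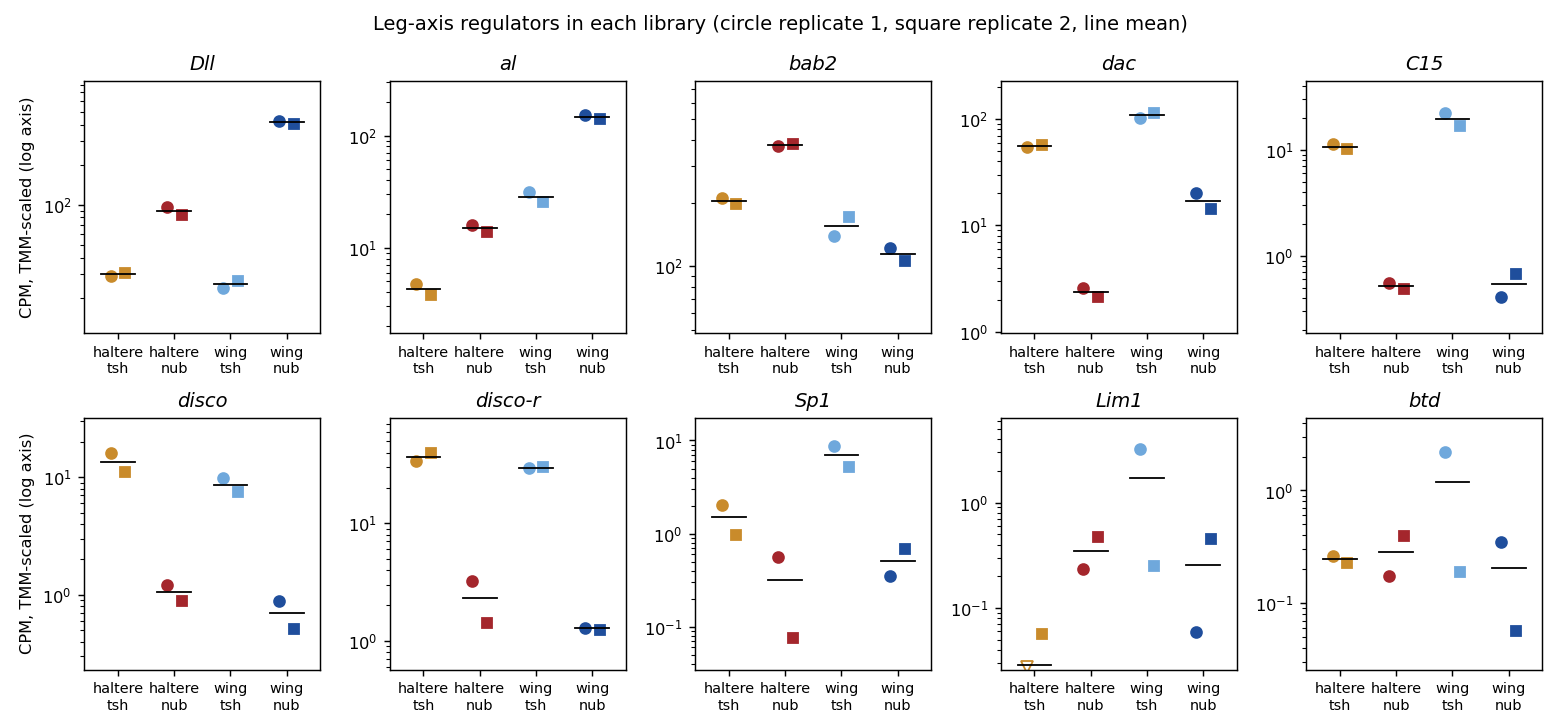
TMM-scaled CPM (log axis, a different range in each panel) of the 10 members in the 8 libraries, by group; circles are replicate 1, squares replicate 2, and the line is the group mean. The open triangle marks the 0 count of Lim1 in haltere tsh replicate 1. Dll and al are highest in wing nub cells, bab2 in haltere nub cells, and dac, C15, disco and disco-r in tsh cells of either disc, while Lim1 and btd are high in wing tsh replicate 1 alone.

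Dll (2R:24814822-24835667, Release 6), the homeobox gene that defines distal limb identity, was a distal gene in both discs but much less so in the haltere. It stood at 425 and 404 CPM in the wing nub libraries, 96 and 84.2 in haltere nub, 29 and 30.8 in haltere tsh and 23.8 and 26.7 in wing tsh. The 4 nub libraries lay above all 4 tsh libraries, and the wing nub libraries lay far above the haltere nub ones. Going down that order, wing nub exceeded haltere nub cells by 4.60-fold (log2 2.2, edgeR adjusted p = 6.23e-08) and haltere nub exceeded haltere tsh cells by 3.01-fold (edgeR adjusted p = 3.88e-07). The last step, from haltere tsh to wing tsh, was 0.24 on the log2 scale (95% interval 0.01 to 0.48) and was not called by edgeR (adjusted p = 0.257). Dll in tsh cells was 33.2% of the nub level in the haltere disc and 6.09% in the wing disc, both above the 1.00% and 2.31% of the driver gene nub.

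The homeobox gene al (2L:378112-387439), which acts at the tip of the leg, was also distal within each disc, and it was lower throughout the haltere. Its levels were 153 and 139 CPM in wing nub, 31.5 and 25.8 in wing tsh, 16 and 13.9 in haltere nub and 4.74 and 3.82 in haltere tsh. No 2 groups overlapped, and even the proximal cells of the wing disc exceeded the distal cells of the haltere disc (log2 0.94 ± 0.13 SE, edgeR adjusted p = 0.00027). In that crosswise comparison, haltere nub against wing tsh, 22.1% of all genes were called (8.81% higher and 13.3% lower). The haltere to wing difference was 9.74-fold in nub cells (log2 -3.28 ± 0.13) and 6.72-fold in tsh cells (-2.75 ± 0.16), and the 2 were not called different (interaction -0.54 ± 0.21, edgeR adjusted p = 0.104). Without wing tsh replicate 1 that interaction was -0.69 and was called (edgeR adjusted p = 0.0316). The ratio of Dll to al counts was 5.99 to 8.06 in the 4 haltere libraries, 2.77 and 2.92 in wing nub and 0.756 and 1.04 in wing tsh.

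bab2 (3L:1140429-1177276), a BTB domain factor gene of the tarsus, had its highest level in haltere nub cells, at 373 and 380 CPM. It stood at 211 and 197 in haltere tsh, 140 and 171 in wing tsh and 122 and 106 in wing nub cells. Its distal to proximal difference had opposite signs in the discs. In the haltere disc nub cells exceeded tsh cells (1.85-fold, log2 0.89 ± 0.11, edgeR adjusted p = 9.64e-05) and in the wing disc they fell short of them (log2 -0.45 ± 0.11, edgeR adjusted p = 0.0165). The wing difference lost its call when a library of haltere nub or wing nub cells, or wing tsh replicate 2, was left out, with log2 values of -0.19 to -0.42. The haltere difference kept it in every one of the 16 alternatives run.

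bab1, the neighbour of bab2 on 3L with 39.3 kb and no protein-coding gene between them, had the same order of group means. Its levels were 18.7 and 19.2 CPM in haltere nub, 14.3 and 14.8 in haltere tsh, 14.2 and 9.99 in wing tsh and 7.87 and 8.01 in wing nub cells. Not called for bab1 were nub against tsh cells of the haltere disc (log2 0.38, edgeR adjusted p = 0.101) and haltere against wing tsh cells (0.27, 0.425). In the wing disc bab1 was lower in nub than in tsh cells (-0.61, edgeR adjusted p = 0.0378). In nub cells it was higher in the haltere by log2 1.26 ± 0.16 (edgeR adjusted p = 0.000317), beside 1.72 ± 0.11 for bab2. The ratio of bab2 to bab1 counts was 19.9 and 19.8 in haltere nub cells and 9.85 to 17.1 in the other 6 libraries.

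dac (2L:16466512-16485998), the intermediate leg gene, was a proximal gene in both discs and lower in both haltere domains. It stood at 103 and 114 CPM in wing tsh, 55.1 and 57.4 in haltere tsh, 20 and 14.3 in wing nub and 2.6 and 2.14 in haltere nub cells. No 2 groups overlapped, and each step down that order was called, by log2 0.95 ± 0.14 (edgeR adjusted p = 0.00194), 1.72 ± 0.15 (7.26e-06) and 2.85 ± 0.16 (6.12e-07). The middle step set wing nub against haltere tsh cells, where 14.3% of all genes were called (6.75% higher and 7.59% lower). Distal cells of the wing disc held 15.8% of the proximal level and those of the haltere disc 4.21%, while the driver gene tsh fell to 2.13% and 3.05%.

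C15 (3R:21499986-21512814), a homeobox partner of al in the leg tip, was proximal where al was distal. It reached 22.2 and 16.6 CPM in wing tsh and 11.3 and 10.2 in haltere tsh cells, against 0.411 and 0.677 in wing nub and 0.551 and 0.488 in haltere nub. The nub libraries all lay under 1 CPM, with 7 and 12 counts in the wing and 54 and 45 in the haltere, and overlapped each other (log2 -0.07, 95% interval -0.82 to 0.68). The nub level was 2.80% and 4.84% of the tsh level in wing and haltere, beside 2.13% and 3.05% for the driver gene tsh. In tsh cells C15 was 1.81-fold lower in the haltere (log2 -0.86 ± 0.20, edgeR adjusted p = 0.0467). That call was lost in 6 of 16 alternatives, among them leaving out wing tsh replicate 1 (log2 -0.63, adjusted p = 0.297) or either haltere tsh library, and DESeq2 (adjusted p = 0.0511).

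disco (X:16210598-16216750) and disco-r (X:16118067-16148977) lie with 61.6 kb and no protein-coding gene between them, and both were proximal in both discs. disco stood at 16 and 11 CPM in haltere tsh and 9.76 and 7.49 in wing tsh, but at 1.21 and 0.890 in haltere nub and 0.880 and 0.508 in wing nub cells. disco-r stood at 34.1 and 39.8 CPM in haltere tsh and 29.6 and 30.3 in wing tsh, and at 3.22 and 1.42 in haltere nub and 1.29 and 1.24 in wing nub cells. The tsh and nub libraries did not overlap for either gene. Within a domain neither gene was called different between the discs. For disco the haltere to wing values were log2 0.60 (95% interval -0.21 to 1.41) in nub cells and 0.64 (0.04 to 1.24) in tsh cells, and for disco-r 0.88 (-0.20 to 1.95) and 0.31 (-0.37 to 0.98).

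The nub against tsh difference of disco was 12.4-fold in the wing disc (log2 -3.63 ± 0.35, edgeR adjusted p = 2.22e-05) and 12.8-fold in the haltere disc (-3.67 ± 0.30, 3.52e-06). For disco-r it was 23.6-fold (-4.56 ± 0.41, 0.000172) and 15.9-fold (-3.99 ± 0.32, 6.72e-05). The wing call of disco-r was lost without either wing nub library (adjusted p = 0.0703 and 0.0667), at log2 values of -4.45 and -4.47. Haltere nub replicate 1 held 2.27 times the disco-r level of replicate 2. Between haltere and wing nub cells disco-r was at log2 0.33 without replicate 1 (edgeR adjusted p = 0.567) and at 1.54, with a call, without replicate 2 (2.24e-05). It was also called, at 0.88, with no filter and without wing tsh replicate 1 (edgeR adjusted p = 0.00876), an alternative chosen after seeing the data. The tsh gene stood at 29.5 and 23.4 CPM in the same replicates 1 and 2, and its part in the difference was not tested. The ratio of disco-r to disco counts ranged from 1.47 to 4.04 over the 8 libraries.

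Sp1 (X:9729648-9756369), a zinc finger gene of ventral appendage growth, was low and was highest in wing tsh cells. It had 143 and 83 counts there (8.78 and 5.18 CPM), 31 and 17 in haltere tsh (2.04 and 0.970 CPM), 6 and 12 in wing nub (0.352 and 0.677 CPM) and 55 and 7 in haltere nub cells (0.561 and 0.0759 CPM). The wing tsh libraries lay above the other 6. The haltere nub replicates differed by 7.39 times, and their exact Poisson intervals (95%, counting error only), 0.423 to 0.730 and 0.0305 to 0.156 CPM, did not meet. In the wing disc Sp1 was lower in nub than in tsh cells (13.5-fold, log2 -3.75 ± 0.88, edgeR adjusted p = 0.016), a call lost without either wing nub library and with limma voom. In the haltere disc the same difference was -2.22 ± 0.82 and was not called (edgeR adjusted p = 0.0736). It ranged from -4.01 to -1.16 over 16 alternatives, of which 6 called it. It was called without wing tsh replicate 1 (-2.21, edgeR adjusted p = 0.0468), without haltere nub replicate 1 (-4.01, 0.00196), with no filter (0.0317) and by DESeq2 (0.024). Without haltere nub replicate 2 (-1.16, 0.383) or haltere tsh replicate 1 (-1.37, 0.481) it was not. Between discs Sp1 in tsh cells was at log2 -2.22 in the haltere (95% interval -3.99 to -0.45) without a call (edgeR adjusted p = 0.186). That value ranged from -2.76 to -1.74 over 16 alternatives, of which 4 called it. Among them was the fit of only the 4 libraries compared (-2.23, edgeR adjusted p = 0.0486).

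Of 7 markers of myoblasts, the muscle precursors that lie on the proximal disc, 5 were called lower in haltere than in wing tsh cells, beside 2.22% of all genes tested, with a median log2 of -1.54 against -0.03. Mef2 (-0.02, edgeR adjusted p = 0.934) and Him (-2.90, 0.144) were not called. The myoblast genes zfh1 and htl stood at 27.6 and 31.1 and at 16.3 and 12.7 CPM in wing tsh cells, and at 6.52 and 5.25 and at 3.95 and 4.40 CPM in haltere tsh cells. In nub cells they lay between 0.738 and 3.84 CPM. The summed level of the 7 markers was 139 to 143 CPM in haltere tsh, 228 to 232 in haltere nub, 208 to 238 in wing tsh and 170 to 172 in wing nub cells, with none at 0. Most of each sum came from Mef2, at 92 to 115 CPM in the 8 libraries, and kirre, an adhesion gene of muscle founder cells. In both discs kirre was called higher in the nub cells (log2 0.43 and 2.36) and reached 113 and 109 CPM in haltere nub cells. The part of these markers in the Sp1 values was not tested. The summed hemocyte markers reached 30.8 CPM and those of fat body 7.67 CPM in wing tsh replicate 1. They were 4.62 and 0.375 CPM in wing tsh replicate 2, and at most 9.48 and 1.03 CPM in the other groups. Wing tsh replicate 1 is the library in which 45.7% of the genes low elsewhere were over 1 CPM. Summed tracheal markers ranged from 1599 to 2822 CPM and those of neurons and glia from 187 to 227 CPM over the 8 libraries.

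Lim1 (X:8756539-8805804), the LIM homeobox partner of al, and btd (X:9694186-9697558), the neighbour of Sp1 at a distance of 32.1 kb, had few counts in every library. Lim1 had 0 and 1 counts in haltere tsh, 23 and 43 in haltere nub, 52 and 4 in wing tsh and 1 and 8 in wing nub cells. The count of 0 in haltere tsh replicate 1 allows a level of up to 0.198 CPM (3 counts). btd had 4 and 4 counts in haltere tsh, 17 and 36 in haltere nub, 36 and 3 in wing tsh and 6 and 1 in wing nub cells. In 7 libraries neither gene passed 0.467 CPM. Only wing tsh replicate 1 was higher, at 3.19 CPM for Lim1 and 2.21 for btd, against 0.250 and 0.187 in replicate 2. Among the 6423 genes under 1 CPM elsewhere, 93.1% were at or below the Lim1 level in that library and 85.7% at or below that of btd. Neither gene was tested in the main fit. Apart from wing tsh replicate 1, the exact Poisson intervals of btd (95%, counting error only) all overlapped. For Lim1 the interval of haltere nub replicate 2 was 0.338 to 0.628 CPM. It lay above those of both haltere tsh libraries, which ended at 0.243 and 0.318 CPM. The Lim1 interval of haltere nub replicate 1, 0.149 to 0.352 CPM, met them.

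**Figure D2:**
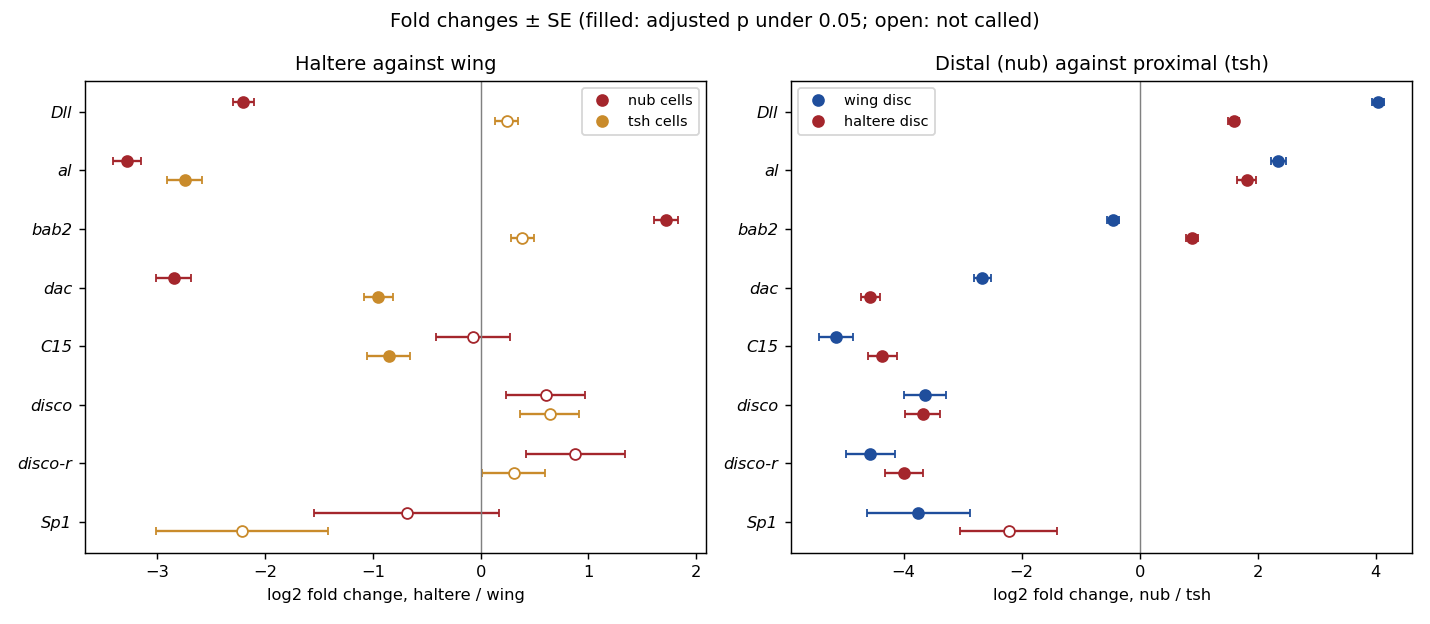
Log2 fold changes ± SE of the 8 tested members, haltere against wing on the left (nub and tsh cells) and nub against tsh cells on the right (wing and haltere disc); filled points have an edgeR adjusted p under 0.05. Between discs, in nub cells, Dll (-2.2), al (-3.28) and dac (-2.85) lie left of 0 and bab2 (1.72) right of it; between domains bab2 lies on opposite sides of 0 in the 2 discs, a wing value whose call was lost in 5 alternatives.

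In nub cells, then, 4 of the 8 members tested differed between haltere and wing, where 23.3% of all 11198 genes tested did. Dll, al and dac were lower and bab2 was higher. The directions are those of 13.6% of all genes for lower and 9.72% for higher calls, and the median log2 of all genes was -0.01. In tsh cells 3 of 8 differed, dac, al and C15, all lower in the haltere, beside 3.26% of all genes (2.22% lower and 1.04% higher). Without wing tsh replicate 1 or 2 the log2 values in tsh cells were -0.63 and -0.99 for C15 and 0.16 and 0.39 for Dll. They were -1.79 and -2.5 for Sp1, 0.25 and 0.6 for bab2, -1.02 and -0.82 for dac and -2.6 and -2.83 for al. The cause of that spread was not tested. bab2 in tsh cells was at log2 0.39 ± 0.11 (edgeR adjusted p = 0.0845), close to the threshold. It was called in 7 of 16 alternatives, among them DESeq2 (adjusted p = 0.016) and no filter (edgeR adjusted p = 0.0434).

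All 8 tested members differed between nub and tsh cells of the wing disc, Dll and al higher and the other 6 lower in nub cells, where 13.8% of all genes were called (5.96% higher and 7.88% lower). In the haltere disc 7 of 8 did, with Dll, al and bab2 higher and dac, C15, disco and disco-r lower, beside 24.9% of all genes (9.96% higher and 15.0% lower). These counts are without Lim1 and btd, which were not tested, and the filter favoured C15 and Sp1 in this direction. Without either wing nub library 5 members were called in the wing disc. The disc and domain comparisons share libraries, so they are not independent of each other.

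The interaction asked whether the haltere to wing difference was unequal in nub and tsh cells, and 3 of 8 members were called, beside 15.4% of all genes (7.32% higher and 8.10% lower). Dll had the largest of the 3, at log2 -2.45 ± 0.14 (edgeR adjusted p = 1.4e-06), with -2.2 in nub and 0.24 in tsh cells. For dac it was -1.90 ± 0.21 (0.000207), with -2.85 in nub and -0.95 in tsh cells. For bab2 it was 1.34 ± 0.15 (0.000247), with 1.72 and 0.39. These 3 calls held in all 15 alternatives run. C15 (0.79, 95% interval -0.07 to 1.64), disco (-0.04, -1.06 to 0.98), disco-r (0.57, -0.71 to 1.86) and Sp1 (1.53, -1.03 to 4.09) were not called, and their intervals are wide.

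**Figure D3:**
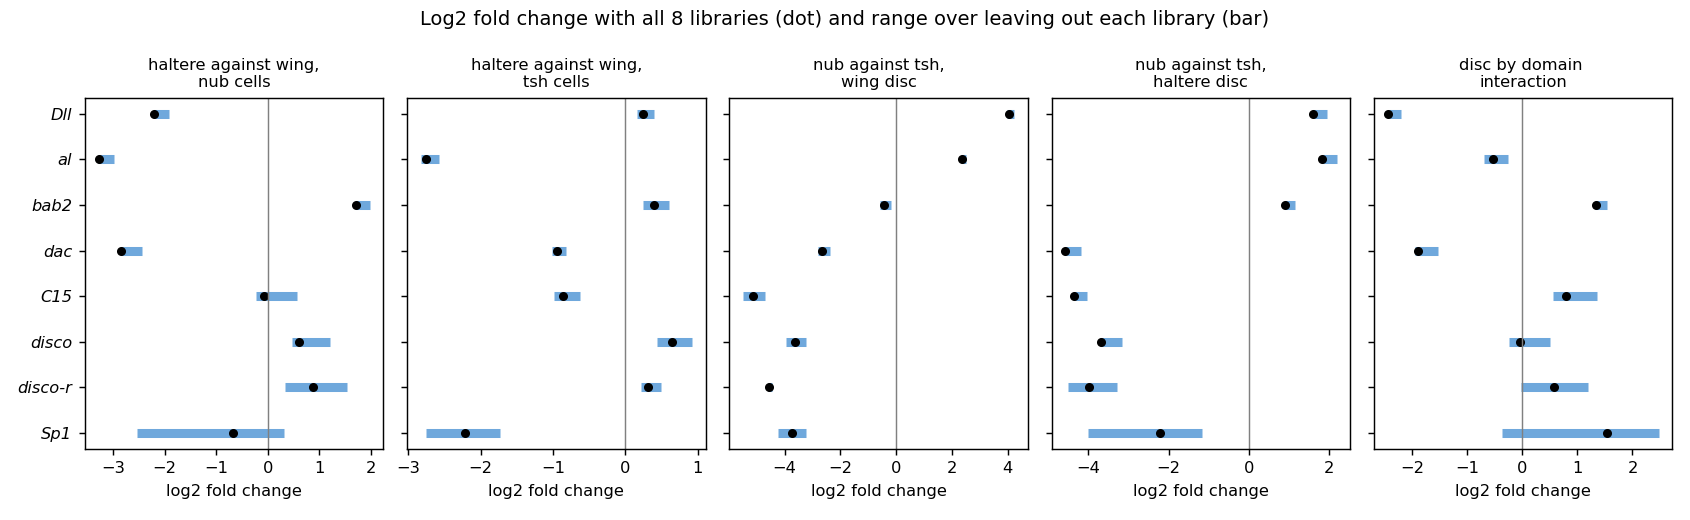
Log2 fold change of the 8 tested members in the 4 comparisons of groups and in the interaction, with all 8 libraries (dot) and the range when each library is left out in turn (bar). The bars of Sp1 run from -2.54 to 0.31 for haltere against wing nub cells and from -0.37 to 2.48 for the interaction, while those of Dll, al, dac and bab2 stay on 1 side of 0 in every panel.

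The other genes of the leg axis were taken from lists of roles. Of the 7 tarsal genes, ss, B-H1 and B-H2 were lower in nub cells of both discs. The Bar homeobox gene B-H1 was at log2 -6.17 ± 0.34 in the wing and -4.17 ± 0.25 in the haltere disc, and ss, a bHLH-PAS gene of tarsus and antenna, at -4.57 ± 0.26 and -4.37 ± 0.24. The zinc finger gene rn was higher in nub cells of both (5.22 ± 0.15 and 7.47 ± 0.18), and so was Poxn (4.23 ± 0.59 and 2.71 ± 0.76), a Pax gene of taste bristles. Altogether 6 of 7 tarsal genes were called in the wing disc (2 higher and 4 lower) and 6 in the haltere disc (3 and 3), with medians of -0.61 and 0.29. Over all genes 13.8% and 24.9% were called, with medians of -0.01. Between discs bab1 was higher and Poxn lower (-3.25 ± 0.50) in haltere nub cells, where 23.3% of all genes were called. In haltere tsh cells rn was lower (-2.30 ± 0.17), the lone call of the 7 there, beside 3.26% of all genes. The driver gene nub was also lower in haltere than in wing tsh cells (-1.85 ± 0.10). Its part in the rn value was not tested.

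Of the 4 proximal leg genes, tsh and its paralogue tio, which marked the sorted domain, and hth, the homeobox partner gene of exd, were lower in wing nub than wing tsh cells, hth by only -0.73 ± 0.10. In the haltere disc tsh, tio and, by -0.30 ± 0.10, exd were lower. That was 3 of 4 genes in each disc, with medians of -3.14 and -2.67, where 7.88% and 15.0% of all genes were called lower. The fall of the driver gene tsh followed from the sort itself, and tsh enters these counts and medians. Not called were exd in the wing disc (-0.091 ± 0.099) and hth in the haltere disc (-0.285 ± 0.1). Of the 9 leg joint genes with a matched ID of 10, the zinc finger genes odd, drm and sob were lower in nub cells of both discs. So was dysf, a bHLH-PAS gene, and the log2 values of these 4 genes were -3.34 to -5.85. The joint gene bowl went the other way in the wing disc (0.34 ± 0.09, edgeR adjusted p = 0.026). In the haltere disc bowl was not called (0.24 ± 0.09, edgeR adjusted p = 0.0758). Between domains 1 joint gene was higher and 4 were lower in nub cells of the wing disc (median 0.12, 13.8% of all genes called), and 2 were higher and 5 lower in those of the haltere disc (median -0.35, 24.9% of all genes). Between discs 2 were higher and 2 lower in haltere nub cells (median 0.31, 23.3% of all genes) and 2 were lower in haltere tsh cells (median -0.07, 3.26% of all genes). tal was not matched to a single ID.

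Of 8 genes for signals that pattern the leg axis, 6 were higher in nub cells of the wing disc and 5 in those of the haltere disc, and none was lower, with medians of 0.73 and 0.47. Over all genes 5.96% and 9.96% were called higher, with medians of -0.01. They included the Wnt ligand gene wg (1.62 ± 0.13 and 3.04 ± 0.14) and rho, which activates EGFR ligands (1.89 ± 0.12 and 1.21 ± 0.12). In haltere nub cells wg (1.22 ± 0.13) and pnt (0.63 ± 0.08) were higher, and hh (-1.19 ± 0.09) and the EGFR ligand gene vn (-1.28 ± 0.08) lower, than in wing nub cells. In tsh cells hh and vn were lower in the haltere and none was higher. Between discs 9.72% of all genes were called higher and 13.6% lower in haltere nub cells. In haltere tsh cells 1.04% were called higher and 2.22% lower. The LIM cofactor genes Chi and Ssdp lay between log2 -0.11 and 0.17 in the 5 comparisons, without an edgeR call.

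The T-box genes H15 and mid, which mark the ventral leg, were included as a check for leg disc tissue. Their summed level was 33.2 to 43.8 CPM in haltere tsh, 25.5 to 37.4 in wing tsh and 1.13 to 2.09 in the nub libraries, most of it from mid. H15 reached 3.68 CPM in wing tsh replicate 1 and at most 1.08 elsewhere. Neither was called between the discs. Between domains mid was called lower in nub than in tsh cells of the wing disc (log2 -4.56 ± 0.44, edgeR adjusted p = 0.000318) and haltere disc (-4.85 ± 0.36, 5.6e-05). H15 was called lower in nub cells of the wing disc (-4.62 ± 1.33, edgeR adjusted p = 0.0381) and was not called in the haltere disc. It stood at 0 and 0.169 CPM in wing nub and at 0.326 and 0.304 in haltere nub cells. H15 thus passed the filter through the tsh libraries alone, which favoured a lower level in nub cells. In wing tsh replicate 2 it stood at 0.687 CPM. Over all genes 7.88% and 15.0% were called lower in nub cells of wing and haltere disc. The part of leg tissue in the members' levels was not tested. The NK cluster neighbours of C15 (tin, bap, lbe, lbl and slou) had 1 of 5 members tested and none called.

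The genes next to the members on the chromosome were a further comparison, given here for those at 5 CPM or more and for Dll. Beside C15, Fancm stood at 33.3 to 39.8 CPM in the 4 group means with no call, and sp3 was higher in haltere than in wing nub cells by log2 0.47 (edgeR adjusted p = 0.00627). Ent1, next to al, stood at 6.75 to 8.43 CPM with no call. The gene nej, next to btd, stood at 1603 to 2046 CPM and was higher in haltere nub than haltere tsh cells by log2 0.35 (edgeR adjusted p = 0.0242). The flanking genes of Lim1, CG1789 and CG12075, were at log2 -0.44 (0.0239) and 0.42 (0.00742) in haltere against wing nub cells, and CG12075 was lower in nub cells of the wing disc by -0.33 (0.0367). CG1354, next to Sp1, was at -0.37 in haltere against wing nub cells (0.0246) and in haltere nub against tsh cells (0.0218), with an interaction of -0.49 (0.046). Neither neighbour of Dll reached 1 CPM in any group mean.

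The genes whose profile over the 8 libraries was most like that of a member were ranked by the root mean square difference of centred log2 CPM, among 7395 genes of at least 5 CPM on average (7396 for Sp1). For bab2 they were sog, a secreted BMP antagonist gene (0.155), mfas, a cell adhesion gene (0.157), and Thor, a translation inhibitor gene (0.243). For C15 they were sr, an EGR-type zinc finger gene (0.261), the GATA factor gene pnr of the notum (0.267) and Reck (0.291). For disco they were Nox (0.228), the nuclear receptor gene svp (0.316) and the collagen gene Mp (0.318), and for disco-r svp (0.390), mid (0.416) and sob (0.426). pnr stood at 107 and 104 CPM in wing tsh and 53.2 and 48.1 in haltere tsh cells, and at 1.67 to 3.61 in nub cells.

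For Dll the nearest profiles were trh, a bHLH-PAS gene (0.372), the POU gene vvl (0.474) and Inos (0.504). trh stood at 199 and 194 CPM in wing nub, 62.7 and 68.8 in haltere nub and 15.2 to 30.9 in the tsh libraries. For al they were the Wnt ligand gene Wnt2 (0.583), nord (0.610) and CG8483 (0.673), and for dac hui (0.573), lncRNA:CR32111 (0.624) and the Iroquois gene caup (0.688). For Sp1 they were zfh1 (0.589), htl (0.653) and CG1698 (0.757), the first 2 being of the myoblast list. Among the members themselves the nearest were disco and disco-r (0.498), then C15 and disco-r (0.616), whereas al and its leg partner C15 lay 3.62 apart. These differences describe likeness over 8 libraries of 4 groups only.

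**Figure D4:**
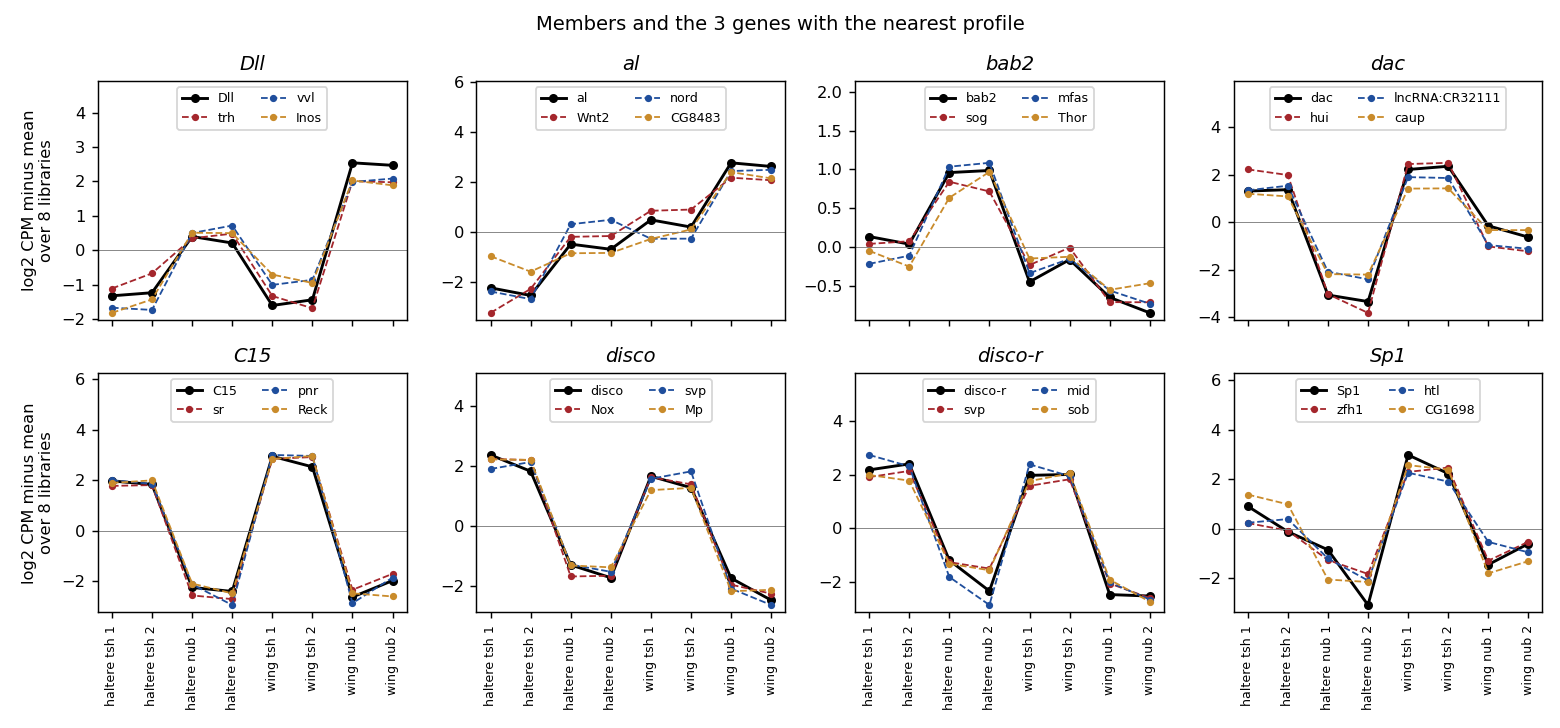
Log2 CPM minus its mean over the 8 libraries, for each of the 8 tested members (black) and the 3 genes with the nearest profile (dashed), with the haltere libraries (tsh, then nub) to the left of those of the wing, replicate 1 before 2. The genes nearest to C15 differ from it by 0.261 to 0.291 and those nearest to dac by 0.573 to 0.688.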

How the data were processed

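RNA was measured in 8 libraries; the 17 ATAC-seq and 11 ChIP-seq samples of the series were not analysed here. The deposited values are raw counts per gene, 1 library per file, as their whole numbers and unequal totals show. Per the submitters' processing notes, HISAT2, Bowtie2, bcl2fastq, deepTools and the dm6 build were used somewhere in the series. For the counting tool, annotation release and strand setting the sources used here give nothing. Symbols came from a FlyBase table (17710 of 17807 IDs matched), and positions from RefSeq's Release 6 table. The symbol Dl is Delta in that table.

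Genes were kept by filterByExpr (minimum count 10), scaled by TMM and tested in edgeR 4.0.16 (R 4.3.3) by quasi-likelihood with robust dispersions, in 1 model of 4 groups with 4 residual degrees of freedom and a common biological coefficient of variation of 19.9%. Tests were two-sided, with Benjamini-Hochberg adjustment over 11198 genes, and called under an adjusted p of 0.05. A further pair of contrasts between groups of unlike disc and domain served only for the order of levels. SEs came from the F statistic. The pipeline was tested on simulated data. Alternatives were DESeq2 1.42.0, limma 3.58.1 (voom), other scalings, no filter, 4 libraries only, a replicate block and leaving out each library with the filter redone. Intervals and floors cover counting error only unless given as those of a fold change. Leaving out a library leaves 1 in its group, which is assumed to vary like the other groups.

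All 10 members were named whatever their result; of the role lists, called genes with the smallest adjusted p were named, with some examples and flanking genes chosen after their values were seen. Members and lists were chosen with earlier results of these data known. No sequences were printed.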

Additional observations from a re-analysis of the deposited data

Results flagged for a closer look

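Each value here is a disc by domain interaction called by edgeR, that is, a haltere to wing difference that was unequal in nub and tsh cells. Among the 10 leg-axis members, the interaction was -2.45 on the log2 scale for Dll, which was lower in the haltere in nub cells (-2.2) and not called in tsh cells (0.24). It was -1.90 for dac, lower in the haltere by more in nub than in tsh cells. It was 1.34 for bab2, which was higher in the haltere in nub cells (1.72) and not called in tsh cells (0.39).

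Among the listed leg genes, the tarsal genes bab1 (0.99), B-H1 (2.00) and rn (2.25), the joint genes Dl (0.45) and drm (0.95) and the signal genes wg (1.42) and pnt (0.66) had positive values. Ser (-0.62), hh (-0.50), vn (-0.56) and rho (-0.68) had negative ones. B-H1 was near 0 in both nub groups, at 0.226 to 1.01 CPM. The driver gene nub had an interaction of 1.21 itself, and its part in the rn value was not tested. With 2 libraries in a group, no single library could be set apart from its group by a test.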

How the results depend on the processing

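Over 40 member results and 632 alternative values, 576 kept direction and side of the threshold, 16 lost a call, 24 gained one and 16 changed sign. All sign changes were in results that were not called. With upper quartile scaling C15 in haltere against wing nub cells was at 0.02 and the disco interaction at 0.12. Leaving out each library in turn gave -0.22 to 0.56 for C15 and -2.54 to 0.31 for Sp1 in haltere against wing nub cells. The interaction ran from -0.37 to 2.48 for Sp1, -0.24 to 0.51 for disco and -0.03 to 1.19 for disco-r. The cause of these changes was not tested.

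Leaving out a library gave 1438 to 3860 genes called between discs in nub cells, 255 to 3308 in tsh cells, 1323 to 4657 between domains of the wing disc, 1784 to 4351 of the haltere disc, and 835 to 4255 for the interaction. The highest of each came without wing tsh replicate 2, when wing tsh replicate 1 stood alone for its group. Members called ran from 2 to 7 between discs in tsh cells and from 5 to 9 between domains of the wing disc. DESeq2 called 720 genes between discs in tsh cells. No filter without wing tsh replicate 1, an alternative chosen after seeing the data, called 3967 genes between discs in nub and 692 in tsh cells.

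With the replicate block, 4, 2, 8, 8 and 4 members were called in the 5 comparisons, in the order of the report. Over all genes the same setting called 2476, 315, 1438, 2696 and 1562 genes, in the same order. C15 between discs in tsh cells lost its call, and Sp1 between haltere domains and the al interaction gained one. No label says that a replicate number marks libraries prepared together. Differences between replicates correlated at -0.324 to 0.107 across pairs of groups. Such correlations cannot settle pairing, since differences of single libraries enter them too. Levels near or under 1 CPM limit C15, Sp1, disco, Lim1 and btd in nub cells.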
